A study of Homo sapiens with 6 samples.

Results

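The data describe 9 long noncoding RNAs, transcripts not known for a protein product, in LNCaP, a cell line from a human prostate cancer metastasis. They are PCGEM1, MALAT1, NEAT1, GAS5, SNHG1, SNHG5, SNHG8, ZFAS1 and DANCR, and all 9 were found among the 17297 genes of the count table, 8 under these symbols and DANCR under the older symbol KIAA0114. The members were chosen by name, but measured values of these libraries entered the choice. PCGEM1 was selected on its higher level in the Gα13 line, and MALAT1 and NEAT1 were listed as differing by a library tag. For these values no test is given.

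The comparison is between 2 stable LNCaP lines made with the retroviral vector pBabe, pBabe-vector with the empty vector and pBabe-GNA13 with GNA13, the gene of the G protein subunit Gα13. All cells carry the vector and were cultured for 48 h, and RNA was taken from 3 biological replicates of each line. Each condition is 1 stable line, so a difference between the conditions and a difference between these lines cannot be told apart. In each line the column headings name replicate 2, replicate 3 and a library tagged std. The std library of pBabe-vector is replicate 1, that of pBabe-GNA13 is known by its line only, and what the tag stands for is not given in the sources used here.

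The libraries held 33002160 to 40628970 counts, so that the floor of 3 counts equals 0.0738 to 0.0909 CPM (read counts put on a common library size with the TMM factors of edgeR). GNA13 itself was at 820, 886 and 747 CPM in the std, replicate 2 and replicate 3 libraries of pBabe-GNA13 and at 76.7, 69.4 and 65.4 CPM in those of pBabe-vector, as the labels state. All 10 luminal prostate markers looked for had reads in every library. In the following, values of the libraries of a line are given in the order std, replicate 2, replicate 3. Log2 fold changes are pBabe-GNA13 over pBabe-vector, so that a positive value is higher in pBabe-GNA13, with their standard error (SE) from the quasi-likelihood fit of edgeR across all genes. A gene was called where the Benjamini-Hochberg adjusted p was under 0.05. Because the libraries with the same number or tag deviated together in both lines, a second fit took these pairs as a block. Log2 fold changes of the line and their SE are from the fit without the block unless said otherwise. This holds also for genes called with it.

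Long noncoding RNAs act as RNA, and their roles in cancer differ widely. PCGEM1 is a transcript largely restricted to the prostate that has been linked to androgen receptor signalling. MALAT1 and NEAT1 are abundant nuclear transcripts, MALAT1 lying in nuclear speckles with splicing factors and NEAT1 forming the scaffold of paraspeckles. GAS5, SNHG1, SNHG5, SNHG8, ZFAS1 and DANCR are spliced hosts that carry small nucleolar RNAs (snoRNAs) in their introns. The spliced RNA of several such hosts begins with a pyrimidine tract like that of ribosomal protein mRNAs, which links their turnover to translation.

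To show where these transcripts begin, the sequence around the annotated start of the 6 host genes is given from RefSeq (GRCh38.p14), with 20 bases before the start and 30 from the start on, 5′ to 3′ on the strand of the gene. Capitals mark the longest run of C or T that comes within 5 bases of the start.
GAS5: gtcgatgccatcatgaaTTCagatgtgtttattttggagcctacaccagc
SNHG1: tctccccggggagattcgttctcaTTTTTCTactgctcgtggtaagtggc
SNHG5: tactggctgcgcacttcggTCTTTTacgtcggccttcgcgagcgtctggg
SNHG8: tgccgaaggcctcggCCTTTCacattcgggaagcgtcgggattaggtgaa
ZFAS1: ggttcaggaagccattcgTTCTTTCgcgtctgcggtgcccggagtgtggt
DANCR: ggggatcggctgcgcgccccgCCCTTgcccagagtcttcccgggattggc

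These windows are chr1:173869016-173869065 for GAS5, chr11:62855856-62855905 for SNHG1, chr6:85678704-85678753 for SNHG5, chr4:118278742-118278791 for SNHG8, chr20:49278622-49278671 for ZFAS1 and chr4:52712374-52712423 for DANCR. GAS5, SNHG1 and SNHG5 lie on the minus strand and the other hosts on the plus strand. The run was 7 bases long in SNHG1 and ZFAS1, 6 in SNHG5 and SNHG8, 5 in DANCR and 3 in GAS5. A run of 6 or more was thus found at 4 of 6 host starts, and at 23.1% of the 35116 promoter windows of the reference. These are annotated starts, not starts measured in LNCaP. The RefSeq starts differ from the ends of the Gencode genes used here for positions. The GAS5 window lies wholly before its Gencode gene, which on the minus strand begins at chr1:173868882. The windows of the other hosts lie within their Gencode genes, that of ZFAS1 beginning at chr20:49278178. The run lengths, such as the short run of GAS5, thus hold for the RefSeq starts only.

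PCGEM1 was a rare transcript in both lines and the member with the largest difference between them. It is annotated at chr2:192749845-192776899 on the plus strand (Gencode 44), with 3 exons in its canonical transcript of 1590 bases. It had 195, 254 and 231 counts in pBabe-GNA13 and 59, 65 and 60 counts in pBabe-vector. On the normalized scale this was 5.22, 7.46 and 6.72 CPM against 1.41, 1.92 and 1.87 CPM. Every pBabe-GNA13 library was above every pBabe-vector library, and the lowest of the former was 2.72 times the highest of the latter. The mean was 6.47 ± 1.14 CPM (SD, n = 3) in pBabe-GNA13 and 1.73 ± 0.283 CPM (SD, n = 3) in pBabe-vector, a ratio of 3.73.

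The fitted log2 fold change of PCGEM1 was 1.90 ± 0.22 (SE), and it is given as a description, since the transcript was picked for it. Among all genes, 7.30% were higher in every pBabe-GNA13 library than in every pBabe-vector library. Within the pairs the difference in log2 CPM was 1.85 for the std libraries, 1.93 for replicate 2 and 1.81 for replicate 3. Of the 9 markers of other cell types in the table, 5 were also called higher in pBabe-GNA13 with the block, beside 9.32% of all genes. Their part in the differences between the lines was not tested. Leaving out any 1 library moved the fitted value between 1.77 and 2.04. PCGEM1 ranked 27 of 14059 genes with a mean of at least 1 CPM by log2 fold change, between RP11-284F21.10 at 1.97 and PRR16 at 1.86. Among the 192 of these genes that Gencode 44 types as long noncoding RNA, a class formed after the values had been seen, it ranked 1, ahead of LA16c-83F12.6 at 1.13. This rank covers placed genes only. Of the 17297 genes 14383 were placed on Gencode 44, and RP11-284F21.10, above PCGEM1, is not among the 192.

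PCGEM1 was not called in the contrasts between libraries of the same line, which had no part in its choice. Replicate 3 against replicate 2 gave a log2 fold change of −0.11 ± 0.18 (adjusted p = 0.668, edgeR's quasi-likelihood test). The std libraries were lower than the others by a log2 value of −0.44 ± 0.16 with an adjusted p of 0.925, and this direction held in both lines (−0.44 in pBabe-GNA13 and −0.41 in pBabe-vector). The coefficient of variation over 3 libraries was 17.7% in pBabe-GNA13 and 16.3% in pBabe-vector.

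As PCGEM1 has been tied to the androgen receptor, the window around its annotated start is shown, from 250 bases before to 50 bases after it, with the half-site of the receptor's response element in capitals (AGAACA, or TGTTCT on the other strand). It is chr2:192749595-192749894, plus strand, from RefSeq (GRCh38.p14).
PCGEM1: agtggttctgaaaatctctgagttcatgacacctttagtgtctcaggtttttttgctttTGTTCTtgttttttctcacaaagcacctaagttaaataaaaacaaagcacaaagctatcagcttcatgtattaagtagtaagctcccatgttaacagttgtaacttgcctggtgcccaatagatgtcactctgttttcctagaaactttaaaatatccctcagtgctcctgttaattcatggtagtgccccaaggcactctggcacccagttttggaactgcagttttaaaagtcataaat

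The window held 1 half-site, starting at position −191 from the start, and 14.8% of all promoter windows hold at least 1 on either strand. The match is a description of the letters and not a measured binding site.

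The androgen receptor and its targets were followed as a list of 23 genes, and 22 of them had a row in the table. Without the block 0 were called, 2 had an unadjusted p under 0.05 and the median log2 fold change was 0.10 against −0.0013 over all genes. Over all genes this fit called 24, or 0.139%. Taking the pairs into account, 5 were higher and 3 lower at the threshold, beside 9.32% of all genes higher and 10.4% lower. The 4 with the smallest p were all higher in that fit. KLK2, a kallikrein protease of the prostate, was at 238 ± 115 CPM (SD, n = 3) in pBabe-GNA13 against 122 ± 44.8 CPM in pBabe-vector. HPGD, which breaks down prostaglandins, was at 9.61 ± 5.67 CPM against 3.79 ± 1.87 CPM. ACPP, prostatic acid phosphatase, and SLC45A3, a transporter known as prostein, had log2 fold changes of 0.42 ± 0.34 and 0.28 ± 0.26. The spread of these genes between the libraries of a line was wide, and their calls came from the paired fit only. KLK3, the gene of prostate-specific antigen, was at 3143 ± 934 CPM against 2765 ± 977 CPM and was called with the block only (adjusted p = 0.00764, edgeR's quasi-likelihood test). The 3 called lower with the block, added here after their values were seen, were ZBTB10, a zinc finger gene, at −0.24 ± 0.12, PMEPA1, an inhibitor of TGF-β signalling, at −0.24 ± 0.15, and the kallikrein KLK4 at −0.18 ± 0.14. PMEPA1 lies on chromosome 20 and was at −0.027 relative to the median there.

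The gene of the table next to PCGEM1 on one side, TMEFF2, was also higher in pBabe-GNA13. TMEFF2 encodes a transmembrane protein expressed in prostate and brain, and lies 555 kb before PCGEM1. It was at 478, 585 and 505 CPM in pBabe-GNA13 and 249, 294 and 271 CPM in pBabe-vector, a log2 fold change of 0.95 ± 0.12 (adjusted p = 0.0454). The lines did not overlap, and the difference was larger than the spread within either. On the other side the next gene, SLC39A10, a zinc importer, lay 2799 kb away with a log2 fold change of 0.20 ± 0.29 (adjusted p = 0.964 without and 0.0238 with the block).

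In a window of 5 Mb on either side of PCGEM1, set after its values were known, 30 other genes had a mean of at least 1 CPM. Their median log2 fold change was 0.03, with 17 above 0. With the block TMEFF2 and SLC39A10 were called higher and NAB1, a transcriptional corepressor at −0.44, was called lower. Of all genes with a mean of at least 1 CPM, 10.7% were called higher and 12.5% lower in that fit. The median of the 764 other genes of this level on chromosome 2 was 0.07, and PCGEM1 relative to it was at 1.83.

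By Pearson's r of log2 CPM over the 6 libraries, TMEFF2 was also the gene most like PCGEM1 among 14058 genes (r = 0.995). It was followed by HIP1R, an actin and clathrin adaptor (r = 0.993), THBS4, a secreted thrombospondin (r = 0.993), RNF128, a ubiquitin ligase (r = 0.992) and YBX3, an RNA-binding cold shock protein (r = 0.992). All 5 were higher in every pBabe-GNA13 library. The points share the libraries and the difference between the lines, and these r values describe 6 libraries only. The log2 fold changes were 0.36 ± 0.09 for HIP1R, 0.92 ± 0.23 for THBS4, 0.67 ± 0.17 for RNF128 and 0.40 ± 0.09 for YBX3, all smaller than that of PCGEM1. HIP1R and YBX3 lie on chromosome 12, whose median was raised. The gene SRSF9 there was at 0.38, and at 0.088 relative to that median. As these genes were picked for following PCGEM1, their values are a description.

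Other long noncoding RNAs with a known link to prostate cancer made a list of 25, of which 8 were in the table. Without the block none was called and none had an unadjusted p under 0.05, and their median log2 fold change was 0.16. With the block 3 of the 8 were called higher and none lower, beside 9.32% of all genes higher and 10.4% lower. PCAT1, a transcript found in prostate tumours, was at 17.4 ± 5.82 CPM (SD, n = 3) against 11.7 ± 3.88 CPM, with a log2 fold change of 0.57 ± 0.32. CTBP1-AS, an antisense transcript of the corepressor gene CTBP1, was at 22.8 ± 4.98 CPM against 16.4 ± 3.31 CPM. KLKP1, a transcribed kallikrein pseudogene, was at 3.71 ± 0.308 CPM against 2.62 ± 0.722 CPM. PCGEM1 had more than 3 times the log2 difference of any of them, but it was picked for this difference, so the comparison is a description only.

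For the nuclear transcripts MALAT1 and NEAT1 the lines overlapped, and the spread between libraries was the widest of the members. MALAT1, annotated as a single exon of 10434 bases at chr11:65497640-65508073, was at 249, 584 and 441 CPM in pBabe-GNA13 and 319, 551 and 530 CPM in pBabe-vector. Its log2 fold change was −0.14 ± 0.32 without the block (adjusted p = 0.990). With the block it was −0.18 ± 0.06 (adjusted p = 0.0413), a call that ended when the std pair or the replicate 3 pair was left out (adjusted p = 0.342 and 0.287). The pairs themselves differed by −0.36, 0.09 and −0.27, so that MALAT1 was lower in pBabe-GNA13 in 2 of 3 pairs.

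NEAT1 lies 52.1 kb before MALAT1, at chr11:65422774-65445540. It was at 483, 1160 and 565 CPM in pBabe-GNA13 and 665, 902 and 542 CPM in pBabe-vector. Its fitted difference was 0.07 ± 0.34 without the block and −0.012 ± 0.083 with it (adjusted p = 0.961). The pairs went in both directions, at −0.46, 0.36 and 0.06. Without the std pair NEAT1 was called higher in pBabe-GNA13 (0.22, adjusted p = 0.00128) and without the replicate 2 pair it was called lower (−0.21, adjusted p = 0.00458). No direction can be read for NEAT1 between the lines.

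The libraries tagged std set MALAT1 apart from replicates 2 and 3 more than the lines did. MALAT1 was selected on this value, which is a description. Its 2 std libraries, at 249 and 319 CPM, were below all 4 others, which lay between 441 and 584 CPM. The fitted log2 difference of std from the others was −0.90 ± 0.15, at −1.03 in pBabe-GNA13 and −0.76 in pBabe-vector. For NEAT1 it was −0.46 ± 0.37, but the std library of pBabe-vector (665 CPM) lay within the range of the other 4 libraries, 542 to 1160 CPM, and the values were −0.75 and −0.07 in the lines.

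The other 7 members were also lower in the std libraries on average, by fitted log2 values from −0.44 (PCGEM1) to −0.08 (DANCR), and none of them was called. Of all genes, 0.0925% were called by the tag. Only PCGEM1 among the 7 had an unadjusted p under 0.05 (0.0347), and DESeq2 called none of them. Whether the tag acted alike in the lines was tested by an interaction term. For the 6 snoRNA hosts its adjusted p was 1, with the largest value for SNHG1 at −0.41 ± 0.59 (SE) and the next for GAS5 at −0.25 ± 0.54, errors too wide to show that the lines were alike.

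RNAs without a long poly(A) tail, a class to which MALAT1 belongs by its processed 3′ end, were followed as a list of 32, of which 9 were in the table. By the tag edgeR called none of the 9, with 3 at an unadjusted p under 0.05, and DESeq2 called 3, all lower in the std libraries. Of the 9, 5 had negative values, and the median was −0.32. RN7SL1 and RN7SL2, RNAs of the signal recognition particle, were noted after their values were seen. RN7SL1 was at 52.1 and 44.3 CPM in the std libraries and at 93.1 to 159 CPM in the other 4. RN7SL2 was at 48.1 and 38.5 CPM against 91.2 to 149 CPM. Their log2 differences were −1.44 (adjusted p = 0.518) and −1.50 (adjusted p = 0.408) in edgeR's fit, and DESeq2 called both along with HIST1H2AC, a histone gene at −0.72. What part the library preparation has in the low MALAT1 of the std libraries was not tested.

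The genes of proteins in the nuclear bodies that these RNAs occupy were called about as often as all genes or less. Of 39 paraspeckle proteins none was called between the lines without the block, 1 with an unadjusted p under 0.05. With it 6 were called higher and 2 lower, 20.5% in all against 19.7% of all genes. By direction this was 15.4% higher and 5.13% lower, beside 9.32% and 10.4% of all genes. CPSF6, a cleavage factor subunit, had a log2 fold change of 0.20 ± 0.10. RBM3, a cold-inducible RNA-binding protein, was at −0.26 ± 0.12, and SS18L1, a chromatin remodelling subunit, at −0.23 ± 0.14. Of 32 nuclear speckle proteins none was called without the block (3 with an unadjusted p under 0.05), while 4 were called higher and none lower with it, or 12.5%. The splicing factor SRSF9, which DESeq2 called without the block, was at 0.38 ± 0.08, SCAF11 at 0.32 ± 0.10, the kinase CLK2 at 0.27 ± 0.11 and SRRM1 at 0.18 ± 0.18. SRSF9, SCAF11 and CPSF6 lie on chromosome 12 and were at 0.088, 0.028 and −0.092 relative to the median there. SS18L1 lies on chromosome 20 and was at −0.017 relative to the median of that chromosome. The medians of both lists, 0.05 and 0.04, were close to that over all genes. Values above 0 were found for 30 of the 39 and 22 of the 32, beside 8411 of all 17297 genes.

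All 6 snoRNA hosts had lower means in pBabe-GNA13, and DANCR was the one whose lines did not overlap. DANCR, known for keeping cells undifferentiated and annotated at chr4:52712325-52723623, was at 202, 209 and 215 CPM in pBabe-GNA13 and 296, 325 and 303 CPM in pBabe-vector. All 3 pBabe-GNA13 libraries were lower, with a difference of −32.2% in the mean, and the coefficients of variation were only 3.07% and 4.79%. The log2 fold change was −0.56 ± 0.09. It missed the threshold in the fit without the block (adjusted p = 0.116, edgeR's quasi-likelihood test) and passed it with the block (adjusted p = 5.2e-09). DESeq2 without the block also called it (adjusted p = 4.6e-06). An exact two-sided permutation test gave p = 0.1, the smallest that 3 against 3 libraries allow.

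ZFAS1, a host of C/D box snoRNAs at chr20:49278178-49299600, was at 24.9, 31.4 and 24.8 CPM in pBabe-GNA13 and 38.4, 48.0 and 29.5 CPM in pBabe-vector. It was lower in every pair, although the highest pBabe-GNA13 library was above the lowest pBabe-vector library. Its log2 fold change was −0.51 ± 0.19 (adjusted p = 0.486 without and 7.24e-06 with the block). The other 336 genes of chromosome 20 with a mean of at least 1 CPM had a median of −0.21, and relative to this ZFAS1 was at −0.30. DDX27, an RNA helicase gene 34.1 kb before ZFAS1, was at −0.38 ± 0.13, and ZNFX1, which overlaps ZFAS1 on the other strand, at −0.38. Both were called with the block only (adjusted p = 5.41e-06 and 1.61e-05).

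SNHG8 was at 63.6, 84.8 and 56.9 CPM in pBabe-GNA13 and 84.7, 108 and 77.6 CPM in pBabe-vector. The 3 pairs differed by much the same amount, −0.41, −0.34 and −0.45, while replicate 2 was the highest library of both lines. The log2 fold change was −0.39 ± 0.18 (adjusted p = 0.623 without and 2.02e-06 with the block).

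SNHG1, which carries a series of C/D box snoRNAs, was at 61.9, 64.9 and 110 CPM in pBabe-GNA13 and 92.9, 78.5 and 119 CPM in pBabe-vector. Its pairs ranged from −0.59 in the std libraries to −0.11 in replicate 3. The log2 fold change was −0.29 ± 0.25 (adjusted p = 0.894 without and 0.000599 with the block).

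SNHG5 was at 12.8, 16.5 and 14.2 CPM in pBabe-GNA13 and 14.2, 20.4 and 17.4 CPM in pBabe-vector. It was lower in every pair, by −0.15 to −0.31, and the lines overlapped. Its call with the block (adjusted p = 0.0292) ended without the replicate 2 pair or the replicate 3 pair (adjusted p = 0.155 and 0.200).

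GAS5, a transcript that accumulates in growth-arrested cells, was at 142, 214 and 148 CPM in pBabe-GNA13 and 182, 242 and 148 CPM in pBabe-vector. It was lower in the std and replicate 2 pairs and level in replicate 3, at −0.36, −0.18 and 0.01. Its log2 fold change was −0.18 ± 0.22 without the block (adjusted p = 0.941). With the block it was called lower (adjusted p = 0.0299), a call that ended without the std pair (adjusted p = 0.403).

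Thus none of the 8 members other than PCGEM1 was called between the lines without the block, 2 of them (ZFAS1 and DANCR) having an unadjusted p under 0.05 and DESeq2 calling 1. With the block 7 of 8, all but NEAT1, were called lower, where 19.7% of all genes were called and 10.4% were called lower. DANCR, SNHG8, ZFAS1 and SNHG1 were still called lower when any 1 pair was left out. Of the 8, 5 were lower in all 3 pairs, as were 25.3% of all genes. DANCR alone was lower in every pBabe-GNA13 library than in every pBabe-vector library, beside 6.79% of all genes.

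Other noncoding snoRNA hosts, a list of 23 of which 15 were in the table, gave values of the same sign. Without the block edgeR called none, and SNHG11, which DESeq2 called, alone had an unadjusted p under 0.05. With it 10 of 15 were called lower and none higher, beside 10.4% of all genes lower and 9.32% higher. Their median log2 fold change was −0.22 against −0.0013 over all genes, 13 of 15 were below 0, and 11 were lower in all 3 pairs. SNHG3 was at 161, 199 and 123 CPM in pBabe-GNA13 and 259, 276 and 157 CPM in pBabe-vector. It was thus lower in each pair, although the lines overlapped. SNHG11 was at 8.19, 7.96 and 8.05 CPM against 11.9, 12.6 and 10.8 CPM, with no overlap and a log2 fold change of −0.55 ± 0.13. It lies on chromosome 20 and was at −0.34 relative to the median there. SNHG12 was at −0.40 ± 0.39 and SNHG32, listed under the older symbol C6orf48, at −0.25 ± 0.29. Leaving out any 1 pair left 8 to 9 of the 15 called lower with the block.

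Among mRNAs of translation factors that carry a 5′ terminal pyrimidine tract, 26 of 27 were in the table. None was called without the block (1 with an unadjusted p under 0.05), and with it 12 were called lower and 3 higher, beside 10.4% and 9.32% of all genes. The median without the block was −0.10. EEF1A2, a translation elongation factor gene on chromosome 20, was at 1082 ± 103 CPM (SD, n = 3) in pBabe-GNA13 against 1646 ± 310 CPM. Its log2 fold change was −0.61 ± 0.17, and −0.39 relative to the median of that chromosome. EIF2S3, EIF3E and EIF3L, subunits of initiation factors, had log2 fold changes of −0.33 ± 0.17, −0.31 ± 0.14 and −0.32 ± 0.14. Of the 21 factors of nonsense-mediated decay, the pathway that degrades the spliced RNA of several hosts, none was called without the block, none having an unadjusted p under 0.05. With it NCBP1, a cap-binding subunit, was called higher and SMG5 lower, beside 9.32% of all genes higher and 10.4% lower. Without the block NCBP1 was at 0.18 ± 0.17 and SMG5 at −0.15 ± 0.15, and the median was 0.01.

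Of 38 other widely studied cancer long noncoding RNAs, 24 were in the table, and none was called without the block or had an unadjusted p under 0.05. With it NORAD, which sequesters Pumilio proteins, and CRNDE were called lower and none was called higher. This was 8.33% of the 24 lower, beside 10.4% of all genes lower and 9.32% higher. Without the block NORAD was at −0.21 ± 0.17 and CRNDE at −0.19 ± 0.15. Of the genes of the lists given here, the members apart, DESeq2 without the block called between the lines only SNHG11, SRSF9, the histone gene HIST1H1C (0.47 ± 0.11) and the keratin gene KRT14. NORAD lies on chromosome 20, and relative to the median of that chromosome its value was 0.00. Of the 192 long noncoding RNA genes of Gencode 44 with a mean of at least 1 CPM, counted after the values had been seen, 12 were called higher (6.25%) and 33 lower (17.2%) with the block, against 10.7% higher and 12.5% lower of all 14059 genes of this level. The 192 include the 9 members, of which 7 are among the 33 called lower, so the class is not independent of them. Among the 192, DANCR ranked 6 from the lowest, ZFAS1 12 and SNHG8 21.

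In replicate 3 against replicate 2, a contrast within the lines that played no part in the choice, 6 of the 9 members were called. NEAT1, GAS5, ZFAS1, SNHG8 and MALAT1 were lower in replicate 3 and SNHG1 was higher. Of all genes 21.4% were called lower and 20.7% higher. NEAT1 had the largest difference, with a log2 value of −0.90 ± 0.10 (adjusted p = 4.37e-08, edgeR's quasi-likelihood test). It was lower in replicate 3 in both lines, at −1.04 in pBabe-GNA13 and −0.73 in pBabe-vector. GAS5 was at −0.62 ± 0.07 (adjusted p = 6.65e-08), SNHG8 at −0.52 ± 0.06 (adjusted p = 1.66e-07) and ZFAS1 at −0.52 ± 0.09 (adjusted p = 1.84e-05).

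SNHG1 moved the other way, to 0.68 ± 0.08 (adjusted p = 6.77e-08), with 0.76 and 0.60 in the lines. MALAT1 was at −0.23 ± 0.08 (adjusted p = 0.0128), a call that ended without replicate 2 or replicate 3 of pBabe-GNA13 (adjusted p = 0.807 and 0.302). SNHG5 (−0.22, adjusted p = 0.0803), PCGEM1 (−0.11) and DANCR (−0.03, adjusted p = 0.743) were not called. The snoRNA hosts thus differed among themselves between replicates. The same was seen in the other 15 hosts, of which 8 were called higher in replicate 3 and 4 lower, beside 20.7% and 21.4% of all genes. SNHG12 was at 1.11 ± 0.10 and SNHG32 at −0.94 ± 0.07.

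In this contrast 20.7% of all genes were called higher and 21.4% lower. Of the other lists, 23 of 39 paraspeckle proteins were called higher in replicate 3 and 3 lower, while NEAT1 itself was lower. Of the 21 decay factors 11 were higher and 1 lower, and of the 26 translation factor mRNAs 3 were higher and 15 lower. Of the 22 androgen receptor genes 3 were higher and 14 lower, and of the 8 prostate long noncoding RNAs none was higher and 6 were lower, while PCGEM1 was not called. KLK3 was at −0.91 ± 0.07.

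Markers of other cell types moved both with these libraries and with the line. Of 14 looked for 9 were in the table, and their summed level was 46.4 to 61.1 CPM in pBabe-GNA13 and 21.2 to 46.5 CPM in pBabe-vector. KRT5, a basal keratin, had 0 counts in replicate 2 of both lines, where the floor is at most 0.0909 CPM. It had 128 and 19 counts in replicate 3 of pBabe-GNA13 and pBabe-vector, and 115 and 24 in their std libraries. COL1A2, a fibroblast collagen, likewise had 0 counts in both replicate 2 libraries, 87 and 3 in replicate 3, and 96 and 2 in the std libraries. ALB, liver albumin, had 2 and 3 counts in replicate 2, 146 and 21 in replicate 3, and 114 and 36 in the std libraries. TP63, a basal cell factor, had no count in any pBabe-vector library. KRT14, another basal keratin, was at 4.26, 4.49 and 4.39 CPM in pBabe-GNA13 and 1.81, 2.48 and 1.81 CPM in pBabe-vector, so that it was higher in every pBabe-GNA13 library, replicate 2 included. VWF, an endothelial marker, was at 25.9, 30.5 and 14.6 CPM against 19.1, 20.6 and 6.54 CPM. KRT5, COL1A2, ALB, KRT14 and VWF were the markers called higher in pBabe-GNA13 with the block, and none was called lower. Of all genes 9.32% were called higher and 10.4% lower in that fit. Without the block edgeR called none of the 9, with 2 at an unadjusted p under 0.05. In this fit 7 of the 9 had log2 fold changes above 0, and 2, whose values are not reported here, were below 0. The summed level holds these as well. KRT5 and VWF lie on chromosome 12, with log2 fold changes of 2.52 and 0.61, and 2.23 and 0.32 relative to the median there. The part of these markers in the differences between replicates and between lines was not tested. In replicate 2 KRT5 and COL1A2 were at 0, while KRT14 (4.49 against 2.48 CPM) and VWF (30.5 against 20.6 CPM) were higher in pBabe-GNA13. In bulk RNA a change in the share of some cells and a change in RNA per cell cannot be told apart.

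**Figure D1:**
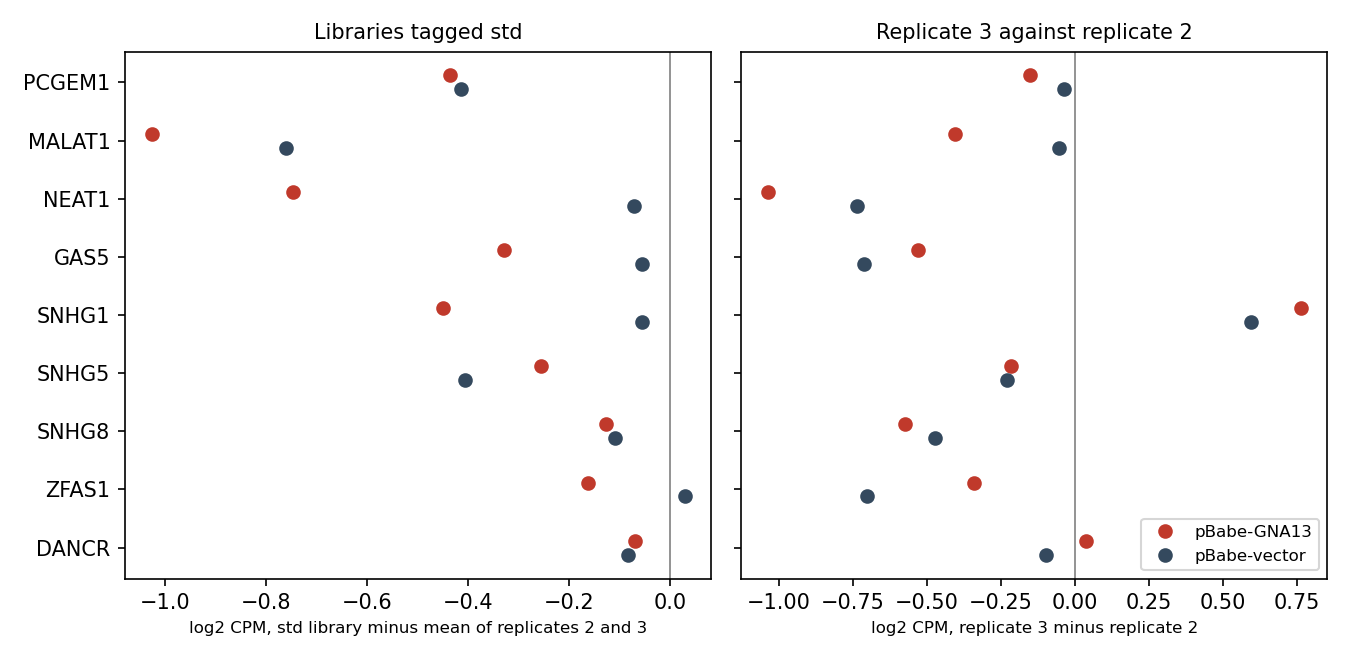
Difference in log2 CPM within each line for the 9 long noncoding RNAs, on the left the std library minus the mean of replicates 2 and 3, and on the right replicate 3 minus replicate 2, with 1 point a line. MALAT1 lies at −1.03 and −0.76 on the left, and on the right NEAT1 lies at −1.04 and −0.73 and SNHG1 at 0.76 and 0.60.

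Of the genes most like MALAT1 over the 6 libraries, PI4KAP1, a pseudogene of a lipid kinase (r = 0.990), PTGER4, a prostaglandin receptor (r = 0.987) and RP5-857K21.6 (r = 0.985) came first. For NEAT1 they were CCNL2, a cyclin of nuclear speckles (r = 0.997), CTD-2165H16.1 (r = 0.996) and ANKZF1 (r = 0.992). For GAS5 a transcript known by a clone name (r = 0.997) was followed by RFNG, a fringe glycosyltransferase (r = 0.996), and CTA-217C2.1 (r = 0.996). The log2 fold changes between the lines of these 9 genes lay between −0.32 and 0.05.

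The other neighbours with a mean of at least 1 CPM had log2 fold changes nearer to 0 than that of TMEFF2. FRMD8, 9.25 kb before NEAT1, was at −0.01 ± 0.09. CENPL and RC3H1 beside GAS5 were at 0.14 ± 0.29 and −0.10 ± 0.11, WDR74 and SLC3A2 beside SNHG1 at −0.10 ± 0.15 and −0.04 ± 0.16, and SYNCRIP and ZNF292 beside SNHG5 at −0.12 ± 0.16 and 0.10 ± 0.24. USP46 and RASL11B beside DANCR were at −0.08 ± 0.12 and 0.27 ± 0.32, and B4GALT5 after ZFAS1 at −0.04 ± 0.13. NDST3 and CEP170P1 beside SNHG8 had means under 1 CPM. None of these was called in either fit.

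Of genes that overlap a member on the opposite strand, ZBTB37 over GAS5 had a log2 fold change of 0.15, and ERVMER34-1 over DANCR was at 0.39, opposite to DANCR. PRSS12 over SNHG8 was at 0.0578 and 0.0723 CPM in the lines, under the floor. The strand setting of the counting is not given in the sources used here, so reads of a member and of such a partner may not be separated.

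Levels were set side by side per kilobase of the canonical Gencode 44 transcript, in pBabe-vector. GAS5 was highest at 248 CPM per kb (192 to 315 over 3 libraries), followed by SNHG1 at 83.2 (67.6 to 102), DANCR at 77.8 (74.8 to 82.0), MALAT1 at 44.7 (30.6 to 52.8), NEAT1 at 30.9 (23.8 to 39.6), SNHG8 at 14.6 (12.6 to 17.4), SNHG5 at 13.2 (10.8 to 15.5), ZFAS1 at 8.53 (6.52 to 10.6) and PCGEM1 at 1.09 (0.885 to 1.21). The ranges of SNHG1 and DANCR, of MALAT1 and NEAT1, and of SNHG8 and SNHG5 overlapped, so that the order within each of these pairs was not beyond the spread. The order depends on the transcript taken: NEAT1 in particular is also made as a much shorter form, and per kilobase of all annotated exons GAS5 was at 38.6, behind MALAT1, and SNHG5 fell to 1.38. In pBabe-GNA13, PCGEM1 was at 4.07 CPM per kb (3.28 to 4.69), still below ZFAS1 at 5.97 (5.48 to 6.94).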

How the data were processed

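RNA-seq of 6 LNCaP libraries, 3 of pBabe-vector and 3 of pBabe-GNA13, was used. The authors deposited counts of reads, whole numbers, for 17297 gene symbols. According to the submitters' notes and the study's methods, read quality was assessed with FastQC 0.11.7, reads were aligned with STAR to Gencode 38 and counted with featureCounts. The version of STAR, the strand setting and the filter on genes are not given in the sources used here.

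Counts were scaled by TMM and fitted over all genes, without a filter, by the quasi-likelihood F test of edgeR 4.0.16 in R 4.3.3 (glmQLFit, glmQLFTest), the line being the only term. The fit by tag held line and tag, and that of replicate 3 against replicate 2 held line and pair. Log2 CPM used a prior count of 2. DESeq2 1.42.0 was an alternative. The edgeR steps were tested on simulated data with known changes. Permutation tests used SciPy 1.17.1. Adjusted p values of the unfiltered edgeR fits are Benjamini-Hochberg over all 17297 genes, and those of DESeq2 follow its default filter on genes. They and the standard errors measure the spread between these libraries, while floors cover counting error only.

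The column of the pBabe-GNA13 library tagged std repeats the number 2 and was tied to its line only. Deviations from the line means over 12778 genes correlated within the pairs (r = 0.659 for std, 0.807 for replicate 2 and 0.888 for replicate 3, across genes, which are not independent replicates), against −0.736 to 0.125 between pairs. The pairs come from the column headings.

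Symbols were placed on Gencode 44 (GRCh38) for 14383 genes, which serves for positions, lengths and types and is not the annotation counted. Start sequences are from RefSeq.

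The members, the 11 gene lists (215 of 284 entries in the table) and the tests were chosen with earlier results of these data known. Genes named are the members, GNA13, of each list up to 4 called genes with the smallest p in the fit with the block (where none was called, the 2 with the highest mean CPM), the nearest gene on each side of a member, the genes most like 4 of the members, and those next to PCGEM1 in fold change. Some genes that the rule names are not reported here. Genes named outside this rule are said to be so or are overlaps, list members at issue and class ranks. Alternatives were RLE scaling, DESeq2, a filter on low counts, the newer quasi-likelihood method, a term for the tag, the block, leaving out each library or pair, and values relative to the chromosome.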

Additional observations from a re-analysis of the deposited data

How the results depend on the processing

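The number of genes called between the lines was 24. It was 271 with DESeq2, 8 with a term for the tag, 2 to 15 without 1 library, 3407 with the replicate block, and 3266, 2550 and 2250 when this fit left out the std, replicate 2 or replicate 3 pair. Of the 8 members other than PCGEM1, 0 were called without the block, 1 with DESeq2, 7 with the block, and 6, 7 and 5 without these pairs. Of the 15 other snoRNA hosts, 0 were called lower without the block, 1 with DESeq2, 10 with the block, and 8, 8 and 9 without these pairs. The tag gave 16 calls, 75 with DESeq2, 1 with the newer quasi-likelihood method and 0 without any 1 library. When 1 library was left out, the log2 fold change of the line ranged from −0.43 to 0.14 for MALAT1, from −0.42 to 0.30 for NEAT1 and from −0.39 to 0.027 for GAS5, so that their signs were not fixed. NEAT1 also turned negative with the block, at −0.012, and this fit gave −0.21 and −0.039 without the replicate 2 or replicate 3 pair. Without 1 library the tag value of ZFAS1 ranged from −0.24 to 0.068, and DANCR in replicate 3 against replicate 2 from −0.084 to 0.024. The log2 fold change of PCGEM1 stayed within 1.77 to 2.04 under all alternatives run. The causes of these changes were not tested. At 59 counts, the lowest PCGEM1 library is well above the floor of 3 counts.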
